A study of Mus musculus with 9 samples.

Results

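The 6 genes described here encode chemokines, small secreted proteins that attract leukocytes, of which several are known products of activated T cells: Ccl3, Ccl4, Ccl5, Xcl1, Cxcl9 and Cxcl10. They were taken by name, through their Ensembl identifiers, from a table of read counts of 29229 genes, and all 6 were found and passed the filter on low counts. Their levels were followed in sorted mouse splenic T cells after bone marrow transplantation, in 9 RNA sequencing libraries, 3 for each of 3 groups. The comparison of allogeneic with syngeneic recipients sets donor T cells in a host of another histocompatibility type against those in an irradiated host of their own type, and the naive group gives the level in mice without a transplant.

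The allogeneic libraries came from CByJ.SJL(B6)-Ptprca/J recipients (H-2d, CD45.1), which were given 8 Gy of radiation and 1000000 splenic T cells. The syngeneic libraries came from B6.SJL-Ptprca Pepcb/BoyJ recipients (H-2b, CD45.1), which were given 9.5 Gy and 8500000 splenic T cells. All recipients also received 5000000 bone marrow cells depleted of T cells and were given acidified water, and their spleens were taken on day 7. T cells and marrow were from C57BL/6 mice, which carry CD45.2. The naive libraries came from healthy C57BL/6 mice that were not transplanted. Recipients and C57BL/6 donors were females of 8 to 12 weeks. The same range of ages is given for the naive libraries. Transplant libraries each pooled the cells of 2 to 4 recipients. In every group live CD3+ CD45.2+ cells were sorted, a gate that keeps T cells grown from the transplanted marrow along with the infused T cells and is meant to leave out the host's own CD45.1 cells. Host strain, radiation dose and number of infused T cells all differ between the allogeneic and syngeneic groups, so that their parts in a difference cannot be told apart. A strain tag that gives the syngeneic host for all 9 libraries goes against the protocols and was left unused.

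Ccl3 (MIP-1 alpha), Ccl4 (MIP-1 beta) and Ccl5 (RANTES) are inflammatory chemokines that attract T cells, monocytes and NK cells, and Ccl3 and Ccl5 bind the receptor Ccr1. Activated CD8 T cells release them on antigen contact, and memory CD8 T cells are known to keep a store of Ccl5 messenger RNA. Xcl1 (lymphotactin) is made by activated CD8 T cells and NK cells and attracts the Xcr1-bearing dendritic cells that cross-present antigen. Cxcl9 and Cxcl10 are ligands of Cxcr3, the receptor carried by T helper 1 and effector CD8 T cells. They are induced by interferon gamma and are known chiefly as products of macrophages, dendritic cells and stromal cells. In graft-versus-host disease, the attack of donor T cells on the host, chemokines of these families are known to guide T cells into target organs.

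Coordinates are those of GENCODE M21 on the GRCm38 build. Ccl3 (ENSMUSG00000000982) is on the minus strand of chromosome 11, from 83647844 to 83649355. Ccl4 (ENSMUSG00000018930) is on the plus strand of the same chromosome, from 83662584 to 83664683, 13.23 kb from Ccl3. Ccl5 (ENSMUSG00000035042) is on its minus strand, from 83525778 to 83530518, so that a stretch of 138.9 kb holds these 3 CC chemokine genes. Xcl1 (ENSMUSG00000026573) is on the minus strand of chromosome 1, from 164931644 to 164935527. Cxcl9 (ENSMUSG00000029417) and Cxcl10 (ENSMUSG00000034855) are both on the minus strand of chromosome 5, from 92321347 to 92328079 and from 92346638 to 92348889, with 18.56 kb between them.

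RefSeq promoter entries for the GRCm38.p6 assembly were matched for 4 of the 6 genes, Xcl1, Cxcl9, Cxcl10 and Ccl3. The 250 bases before the RefSeq start are shown for Cxcl9, Cxcl10 and Ccl3, Cxcl10 and Ccl3 as genes called in opposite directions between allogeneic and syngeneic T cells and Cxcl9 as the neighbour of Cxcl10. Each is on the minus strand and is written 5′ to 3′ along the gene, with the windows at chr5:92328080-92328329, chr5:92348890-92349139 and chr11:83649379-83649628. Capitals mark matches to the NF-kappaB motif (GGG, then any 2 or 3 bases, then TTCC) or to the interferon-stimulated response element (GAAA, any 2 bases, GAAA), searched on both strands after the values of the genes had been seen.
Cxcl9: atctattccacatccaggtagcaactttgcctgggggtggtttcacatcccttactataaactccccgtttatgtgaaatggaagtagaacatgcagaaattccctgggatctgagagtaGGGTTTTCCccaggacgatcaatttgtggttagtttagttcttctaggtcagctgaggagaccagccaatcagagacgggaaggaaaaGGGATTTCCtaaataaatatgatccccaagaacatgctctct
Cxcl10: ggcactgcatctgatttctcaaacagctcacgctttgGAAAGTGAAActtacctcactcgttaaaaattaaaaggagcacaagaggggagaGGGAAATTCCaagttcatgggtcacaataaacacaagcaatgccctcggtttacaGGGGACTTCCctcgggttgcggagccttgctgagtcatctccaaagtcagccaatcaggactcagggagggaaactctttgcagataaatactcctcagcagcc
Ccl3: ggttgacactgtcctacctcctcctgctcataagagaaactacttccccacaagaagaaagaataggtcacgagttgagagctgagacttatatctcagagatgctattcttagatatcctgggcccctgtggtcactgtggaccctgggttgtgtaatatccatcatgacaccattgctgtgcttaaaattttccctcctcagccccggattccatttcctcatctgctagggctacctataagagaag

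The Cxcl9 window held 2 NF-kappaB matches, GGGTTTTCC and GGGATTTCC, 130 and 42 bases before the start. The Cxcl10 window held 1 match to the interferon-stimulated response element, GAAAGTGAAA, 213 bases before the start. It also held 3 NF-kappaB matches at 159, 104 and 103 bases, of which the last pair overlap. The Ccl3 and Xcl1 windows held no match to either motif, and none of the 4 windows held the gamma-activated sequence TTCNNNGAA. Among 32851 promoters of the same length, 8.26% held the NF-kappaB motif, 2.98% the interferon-stimulated element and 7.02% the gamma-activated sequence. These matches describe the letters of the windows and say nothing of binding in these cells.

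The libraries held 103953932 to 176678189 counts each, and values are CPM, the count per 1000000 counts of the column total, unless said otherwise. A ribosomal RNA locus read as the genes Gm26917 and Gm42418 took 7.87 to 17.2% of the counts of allogeneic libraries, 19.4 to 22.4% of syngeneic and 15.8 to 18.8% of naive ones. The summed level of 7 T cell markers, none of them at 0, was 2983 to 3227 CPM in allogeneic, 2385 to 2994 in syngeneic and 3248 to 3578 in naive libraries. The ratio of Cd8a to Cd4 counts was 0.715 to 1.05 in allogeneic, 2.61 to 3.37 in syngeneic and 0.932 to 0.968 in naive libraries. Markers of other cells moved with the groups. The summed level of 11 macrophage and monocyte markers was 225 to 295 CPM in allogeneic, 113 to 296 in syngeneic and 16.5 to 21.8 in naive libraries, where Fcgr1 was at 0. That of 6 neutrophil markers was 305 to 546, 220 to 743 and 1.17 to 4.85 CPM in the same order of groups, and that of 5 erythroid markers 9.11 to 20.002, 1756 to 4499 and 0.950 to 1.11 CPM. That of 6 NK cell markers, which activated T cells share in part, was 1109 to 1406 CPM in allogeneic libraries, where Klra8 was at 0, against 188 to 218 in syngeneic and 69.6 to 75.4 in naive ones. Most of the allogeneic sum was Gzma, at 1295, 1283 and 1011 CPM. Most of the other sums was Eomes, at means of 158 CPM in syngeneic and 56.9 in naive libraries. Gzma, Klrb1c and Ncr1 had higher means in allogeneic than in syngeneic libraries, and Eomes, Klra8 and Tyrobp lower ones. The part of these other cells in the results below was not tested. In such bulk samples fewer cells that make a transcript and less transcript per cell cannot be told apart, and p-values measure the spread between pools or libraries.

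Ccl5 was the most abundant of the 6 transcripts in every library once levels were divided by the length of the longest transcript, and Cxcl9 the least. In allogeneic T cells Ccl5 stood at 328 ± 55.4 CPM per kb (SD, n = 3). Ccl3 at 51.2 ± 4.25 and Ccl4 at 50.2 ± 4.58 CPM per kb followed and overlapped each other. Xcl1 at 14.2 ± 7.38, Cxcl10 at 0.727 ± 0.188 and Cxcl9 at 0.203 ± 0.0674 CPM per kb came next, with no overlap between neighbours. In syngeneic T cells the order was Ccl5 (183 ± 9.20 CPM per kb), Xcl1 (19.7 ± 2.24), Ccl4 (10.1 ± 2.36), Ccl3 (8.08 ± 2.72), Cxcl10 (2.10 ± 0.329) and Cxcl9 (0.358 ± 0.170). Ccl4 and Ccl3 again overlapped. In naive T cells it was Ccl5 (116 ± 9.96 CPM per kb), Xcl1 (11.6 ± 1.46), Ccl4 (2.22 ± 0.248), Ccl3 (0.623 ± 0.245), Cxcl10 (0.522 ± 0.215) and Cxcl9 (0.137 ± 0.0376), where Ccl3 and Cxcl10 overlapped. Xcl1 was therefore behind Ccl5 alone in syngeneic and naive T cells, and behind Ccl5, Ccl3 and Ccl4 in allogeneic ones.

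The 6 transcripts summed to 445 ± 42.1 CPM per kb in allogeneic, 223 ± 11.1 in syngeneic and 131 ± 11.7 in naive libraries (SD, n = 3 each). Ccl5 made up 73.5 ± 5.35% of that sum in allogeneic, 81.9 ± 2.85% in syngeneic and 88.5 ± 0.395% in naive T cells. Ccl3 made up 11.6 ± 2.02%, 3.60 ± 1.11% and 0.467 ± 0.153% in the same groups, and Ccl4 11.4 ± 1.63%, 4.52 ± 0.848% and 1.69 ± 0.0474%. The share of Xcl1 was 3.32 ± 1.94% in allogeneic libraries, against 8.84 ± 0.955% in syngeneic and 8.80 ± 0.368% in naive ones. Cxcl10 made up 0.165 ± 0.0486% in allogeneic libraries, against 0.942 ± 0.145% in syngeneic and 0.409 ± 0.202% in naive ones.

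**Figure D1:**
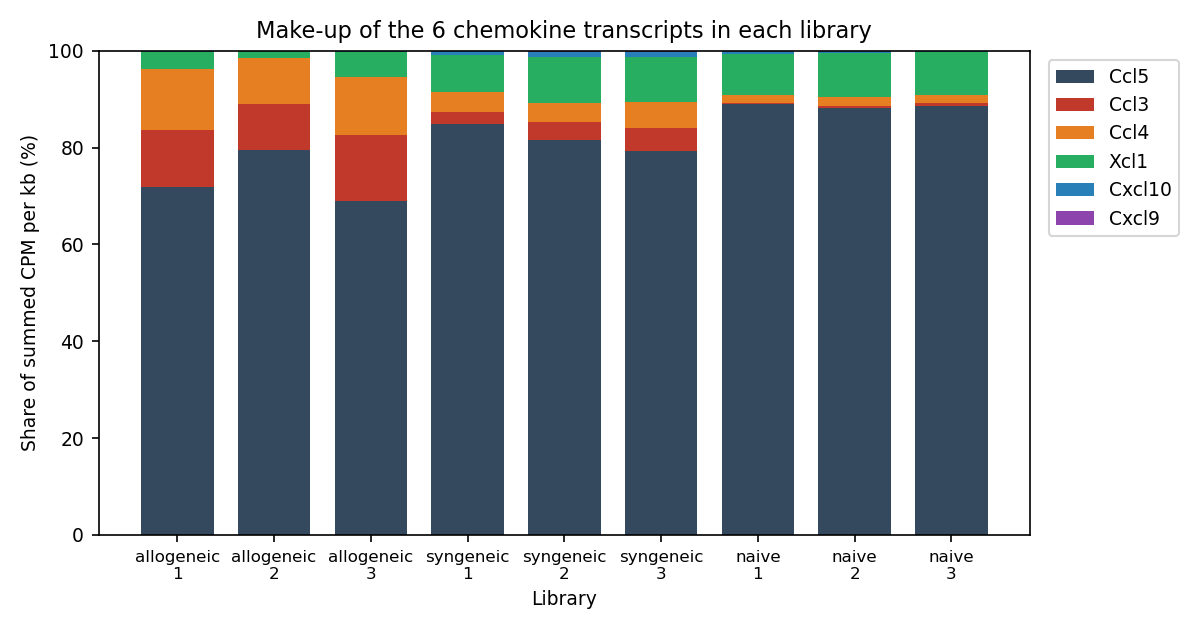
Each bar is 1 library and shows the share (percent, y axis) of each of the 6 transcripts in their summed CPM per kb. Ccl5 fills most of every bar, Ccl3 and Ccl4 together are widest in the 3 allogeneic libraries, and Xcl1 is narrower there than in the syngeneic and naive ones.

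Against syngeneic T cells, allogeneic T cells had higher levels of Ccl3, Ccl4 and Ccl5 and a lower level of Cxcl10, while Xcl1 and Cxcl9 were not called. Calls are those of edgeR's quasi-likelihood test, with p-values adjusted by Benjamini-Hochberg over the 19609 genes tested and a threshold of 0.05. Of the 6, 3 were called higher and 1 lower in allogeneic against syngeneic T cells, where 24.3% of all genes tested were called higher, 20.7% lower and 45.0% either way. Against naive T cells, 3 were called higher in allogeneic T cells, where 31.8% of all genes were called higher, 25.9% lower and 57.7% either way. The other 3, Xcl1, Cxcl9 and Cxcl10, had unadjusted p-values above the threshold as well. In syngeneic against naive T cells 5 were called higher and Xcl1 was not called, where 22.4% of all genes were called higher, 19.5% lower and 41.9% either way. The median log2 fold change of the 6 was 0.20, 1.09 and 1.72 in these 3 comparisons, against -0.02, -0.01 and 0.01 over all genes tested. The libraries of allogeneic and syngeneic T cells did not overlap for 4 of the 6 genes, 3 of them higher and 1 lower, against 52.7% of all genes tested, with 27.4% higher and 25.3% lower. Those of allogeneic and naive T cells did not overlap for 3 genes, all higher, against 65.1% of all genes (32.5% higher and 32.6% lower). Those of syngeneic and naive T cells did not overlap for 5 genes, all higher, against 56.5% of all genes (25.4% higher and 31.1% lower). The 2 comparisons with naive T cells share the naive libraries.

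**Figure D2:**
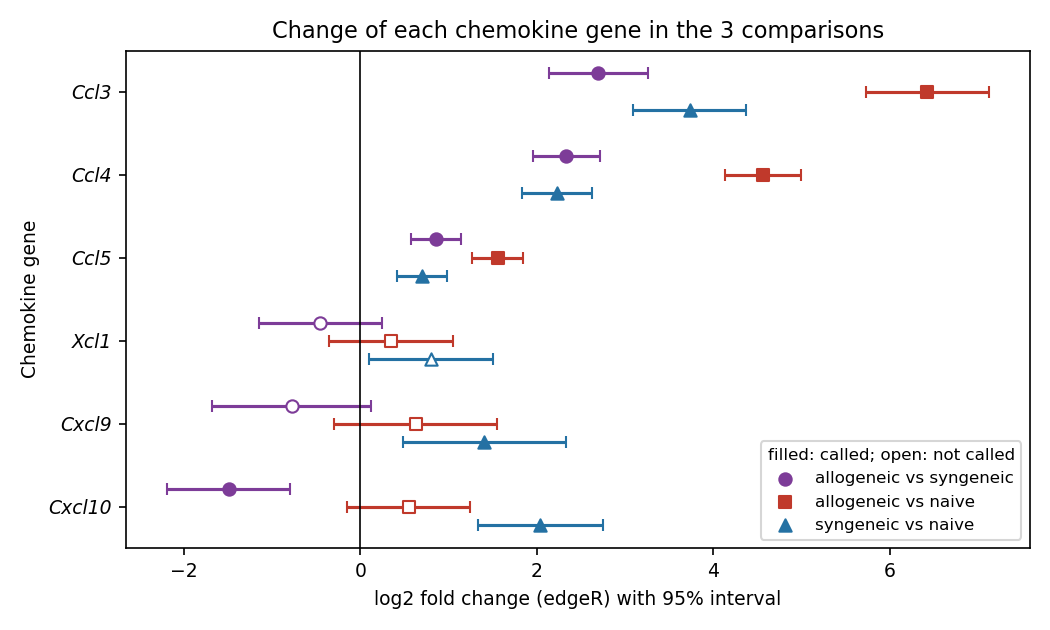
Log2 fold changes from edgeR (x axis) with 95% intervals for each of the 6 genes (y axis) in allogeneic against syngeneic, allogeneic against naive and syngeneic against naive T cells, with filled symbols for called changes and open ones for the rest. Ccl3, Ccl4 and Ccl5 lie right of 0 in all 3 comparisons, and the called changes of Cxcl10 lie left of 0 in allogeneic against syngeneic and right of 0 in syngeneic against naive T cells.

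Ccl3 showed the largest fold differences of the 6 genes in the 3 comparisons, from a low naive level. It stood at 39.1, 36.04 and 42.6 CPM in the allogeneic libraries, at 4.21, 6.00 and 8.36 CPM in the syngeneic ones and at 0.275, 0.512 and 0.645 CPM in the naive ones. The 3 groups did not overlap, and the lowest allogeneic library was above the highest syngeneic one. The naive level rested on 38, 58 and 74 counts, so that Ccl3 was measurable in naive T cells as well. Ccl3 rose 6.48-fold in allogeneic against syngeneic T cells (log2 fold change 2.69 ± 0.26, SE, adjusted p = 9.39e-06) and 86.2-fold against naive ones (6.43 ± 0.32, adjusted p = 1.96e-08). In syngeneic against naive T cells it rose 13.3-fold (3.73 ± 0.29, adjusted p = 2.22e-06).

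Ccl4, the neighbour of Ccl3 and an attractant of T cells and monocytes, stood at 36.6, 30.9 and 32.0 CPM in allogeneic, 5.93, 5.67 and 8.49 CPM in syngeneic and 1.28, 1.58 and 1.54 CPM in naive libraries. No 2 groups overlapped. Ccl4 rose 5.05-fold in allogeneic against syngeneic T cells (log2 fold change 2.34 ± 0.17, adjusted p = 1.53e-06), 23.6-fold in allogeneic against naive ones (4.56 ± 0.20, adjusted p = 7.9e-09) and 4.68-fold in syngeneic against naive ones (2.23 ± 0.18, adjusted p = 3.04e-06). Ccl3 and Ccl4 were at like CPM in allogeneic T cells, where the log2 ratio of their counts averaged 0.24 ± 0.16, while it averaged -0.14 ± 0.31 in syngeneic and -1.69 ± 0.48 in naive T cells (SD, n = 3 each). The ratio of the groups did not overlap in any of the 3 comparisons, with differences of 0.39 in allogeneic against syngeneic, 1.94 in allogeneic against naive and 1.55 in syngeneic against naive T cells. Each had an exact 2-sided permutation p of 0.1, the smallest that 3 against 3 libraries allow (0.133 after Benjamini-Hochberg adjustment over 12 tests of ratios).

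Ccl5, a ligand of Ccr1 that was already the most abundant in naive T cells, changed by the smallest factor of the 3. It stood at 210.4, 260.0 and 187.7 CPM in allogeneic, 127, 115 and 124 CPM in syngeneic and 69.9, 80.8 and 81.9 CPM in naive libraries, with no overlap between groups. Ccl5 rose 1.81-fold in allogeneic against syngeneic T cells (log2 fold change 0.86 ± 0.13, adjusted p = 0.000266), 2.94-fold in allogeneic against naive ones (1.56 ± 0.13, adjusted p = 1.47e-06) and 1.62-fold in syngeneic against naive ones (0.70 ± 0.13, adjusted p = 0.00111). Its mean was 219 ± 37.0 CPM in allogeneic, 122 ± 6.15 in syngeneic and 77.5 ± 6.65 in naive libraries. The log2 ratio of Ccl5 to Ccl4 counts averaged 2.72 ± 0.31 in allogeneic, 4.21 ± 0.30 in syngeneic and 5.72 ± 0.05 in naive T cells, again without overlap (exact 2-sided permutation p = 0.1 for each pair of groups). The differences of this log2 ratio were -1.50 in allogeneic against syngeneic, -3.01 in allogeneic against naive and -1.51 in syngeneic against naive T cells.

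**Figure D3:**
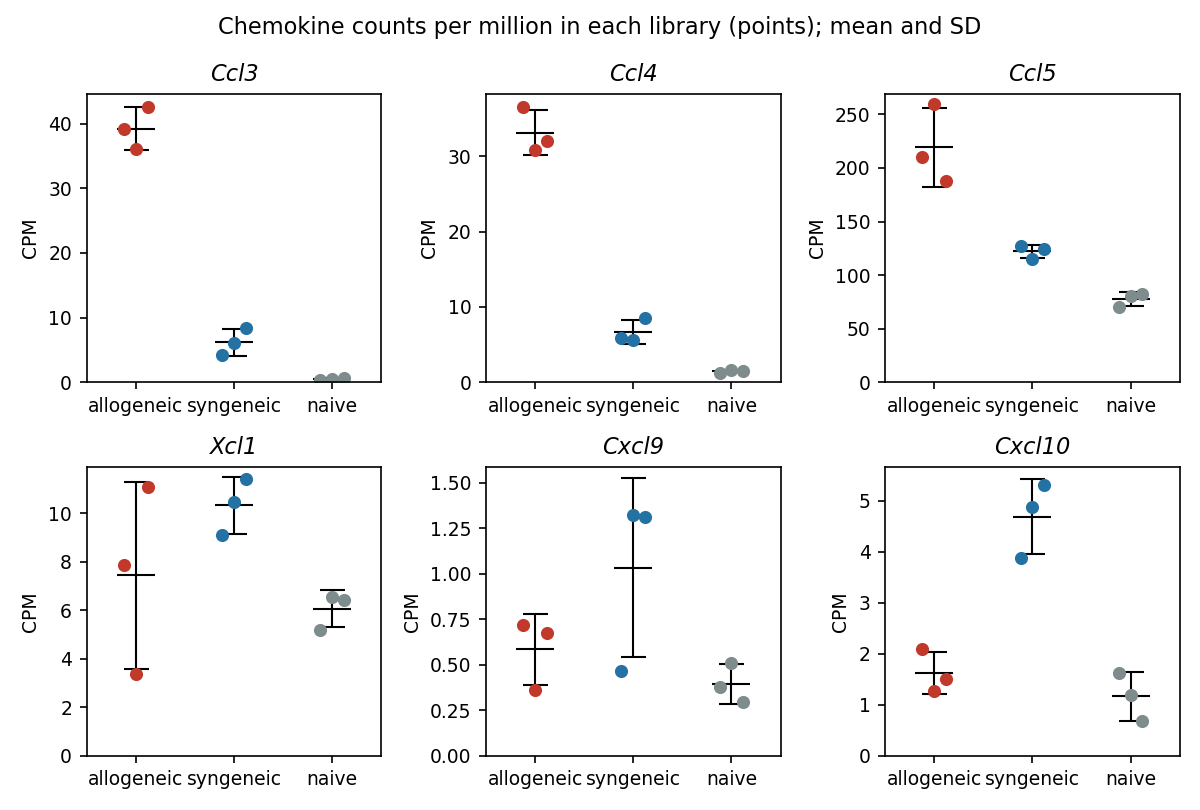
CPM (y axis) of the 6 chemokine genes, with 1 point per library in the allogeneic, syngeneic and naive groups and the mean and SD of each group. Ccl3, Ccl4 and Ccl5 are highest in the 3 allogeneic libraries, Cxcl10 in the 3 syngeneic ones, and the allogeneic Xcl1 values spread from 3.38 to 11.1 CPM.

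Xcl1, the ligand of Xcr1, did not follow Ccl3, Ccl4 and Ccl5. It stood at 7.88, 3.38 and 11.1 CPM in allogeneic, 9.08, 10.5 and 11.4 CPM in syngeneic and 5.17, 6.55 and 6.42 CPM in naive libraries. The allogeneic libraries spread over both other groups, while every syngeneic library was above every naive one. Xcl1 was not called in allogeneic against syngeneic T cells, with a log2 fold change of -0.46 ± 0.32 (95% interval -1.15 to 0.24, adjusted p = 0.262). It was not called in allogeneic against naive T cells either (0.35 ± 0.32, interval -0.35 to 1.05, adjusted p = 0.363), but there it was called higher without allogeneic replicate 2 (0.72, adjusted p = 0.00334). In syngeneic against naive T cells the log2 fold change was 0.81 ± 0.32 (interval 0.10 to 1.51, adjusted p = 0.0638). There it was called with DESeq2 (0.81, adjusted p = 0.0216), with no filter on low counts (0.79, adjusted p = 0.0473), in a fit of those 2 groups only (0.78, adjusted p = 0.0015) and without allogeneic replicate 2 (0.80, adjusted p = 0.00139). The log2 ratio of Xcl1 to Ccl5 counts averaged -5.03 ± 1.12 in allogeneic, -3.57 ± 0.21 in syngeneic and -3.68 ± 0.07 in naive libraries. The allogeneic ratios did not overlap with either other group (differences -1.46 against syngeneic and -1.35 against naive T cells, exact 2-sided permutation p = 0.1 each, 0.133 after adjustment). Without allogeneic replicate 2 these differences were -0.84 and -0.73, and without allogeneic replicate 3 they were -1.93 and -1.82. The ratios of syngeneic and naive T cells overlapped (0.11, exact permutation p = 0.4). The ratio of Cd8a to Cd4 was higher in every syngeneic library than in any other. Allogeneic replicate 3, with a ratio of 1.05, held more Xcl1 than syngeneic replicates 1 and 2, while allogeneic replicates 1 and 2 held less than any syngeneic library. The part of the Cd8a to Cd4 ratio in the Xcl1 levels was not tested.

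Cxcl10, a ligand of Cxcr3, was the only member called lower in allogeneic against syngeneic T cells. It stood at 2.09, 1.27 and 1.501 CPM in allogeneic, 3.88, 4.88 and 5.30 CPM in syngeneic and 1.63, 1.19 and 0.671 CPM in naive libraries. All 3 syngeneic libraries were above all others, and the allogeneic and naive libraries overlapped. Cxcl10 fell to 0.355 of the syngeneic level in allogeneic T cells (log2 fold change -1.49 ± 0.32, adjusted p = 0.00273). In syngeneic against naive T cells it rose 4.11-fold (2.04 ± 0.32, adjusted p = 0.000398). It was not called in allogeneic against naive T cells (0.55 ± 0.32, interval -0.15 to 1.24, adjusted p = 0.159), but was called higher there without naive replicate 1 (0.88, adjusted p = 0.0446).

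Cxcl9, the other Cxcr3 ligand, was the rarest of the 6 and rested on 34 to 143 counts per library. It stood at 0.721, 0.362 and 0.673 CPM in allogeneic, 0.468, 1.33 and 1.31 CPM in syngeneic and 0.376, 0.512 and 0.297 CPM in naive libraries. Syngeneic replicates 2 and 3 were above all other libraries, and syngeneic replicate 1 lay within the range of the naive ones. Cxcl9 was called higher in syngeneic against naive T cells (log2 fold change 1.41 ± 0.42, adjusted p = 0.0186), although the libraries overlapped. That call was lost without syngeneic replicate 2 (adjusted p = 0.0709), syngeneic replicate 3 (0.0736), naive replicate 1 (0.0604) or naive replicate 3 (0.0677), with log2 fold changes of 1.19, 1.21, 1.38 and 1.25 in these fits. In allogeneic against syngeneic T cells it was not called (-0.78 ± 0.41, interval -1.68 to 0.12, adjusted p = 0.143), but was called lower without syngeneic replicate 1 (-1.10, adjusted p = 0.0248). It was not called in allogeneic against naive T cells (0.63 ± 0.42, interval -0.29 to 1.55, adjusted p = 0.218). The log2 ratio of Cxcl9 to Cxcl10 counts averaged -1.49 ± 0.33 in allogeneic, -2.31 ± 0.64 in syngeneic and -1.49 ± 0.53 in naive T cells. Allogeneic and syngeneic ratios did not overlap (difference 0.81, exact 2-sided permutation p = 0.1), while those of naive T cells overlapped with both.

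Macrophages and dendritic cells are known producers of Cxcl9 and Cxcl10, and their markers, which the sort of CD3+ cells is meant to leave out, differed between the groups in both directions. Csf1r, the growth factor receptor of macrophages, stood at 2.09, 1.36 and 1.68 CPM in allogeneic, 3.78, 19.6 and 17.6 CPM in syngeneic and 0.166, 0.0970 and 0.131 CPM in naive libraries. Csf1r was called lower in allogeneic against syngeneic T cells (log2 fold change -2.94 ± 0.48, adjusted p = 0.00049). C1qa, a complement component of tissue macrophages, stood at 0.161, 0.464 and 0.481 CPM in allogeneic and 0.729, 3.97 and 2.68 CPM in syngeneic libraries, and at or below 0.00872 CPM in naive ones. Syngeneic replicate 1, which had the lowest Cxcl9 and Cxcl10 of its group, was also its lowest library in Csf1r and C1qa. Allogeneic replicate 1 had the highest Cxcl9 and Cxcl10 of its group, with its highest Csf1r and its lowest C1qa. Csf1r was above the naive level in every allogeneic library, while Cxcl9 and Cxcl10 overlapped with the naive libraries there. Of the 11 macrophage and monocyte markers, 3 (Cd68, Ccr2 and Itgam) were called higher and 6 lower in allogeneic against syngeneic T cells. All 11 were called higher in each group of recipients against naive T cells. Of all genes tested, 24.3% were called higher and 20.7% lower in allogeneic against syngeneic T cells. Against naive T cells 31.8% of all genes were called higher in allogeneic and 22.4% in syngeneic T cells. Of 8 dendritic cell markers, 1 (Itgax, which activated T cells also express) was called higher and 6 lower in allogeneic against syngeneic T cells, and 7 were called higher in syngeneic against naive T cells. Their summed level, most of it Itgax in allogeneic libraries, was 163 to 236 CPM in allogeneic, 21.5 to 53.6 in syngeneic and 3.67 to 5.59 in naive libraries, where Clec9a was at 0. The part of these cells in the Cxcl9 and Cxcl10 levels was not tested.

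**Figure D4:**
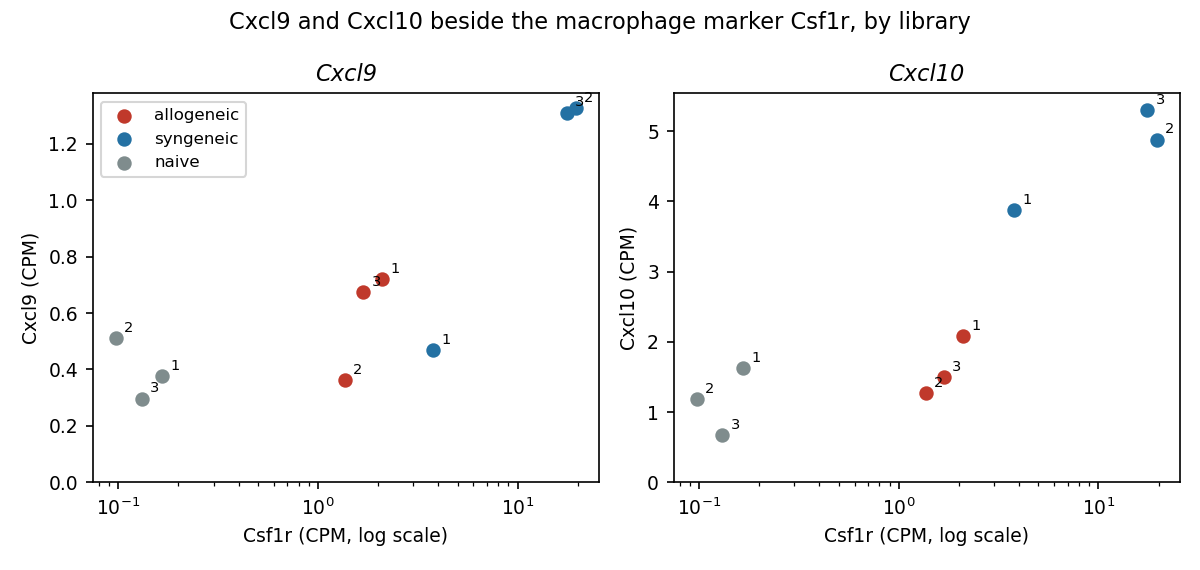
Cxcl9 (left) and Cxcl10 (right) in CPM on the y axis against the macrophage marker Csf1r in CPM on a log x axis, with 1 numbered point per library, coloured by allogeneic, syngeneic or naive group. Syngeneic libraries 2 and 3 are highest in Csf1r and in Cxcl9, and the 3 syngeneic libraries are highest in Cxcl10.

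The 6 genes did not all vary alike over the 9 libraries, given as correlations of log2 CPM that also carry the differences between groups. Ccl3 and Ccl4 went together with Pearson's r = 0.989, Ccl3 and Ccl5 with 0.957 and Ccl4 and Ccl5 with 0.974. Cxcl9 and Cxcl10 went together with r = 0.813. Xcl1 had an r of 0.747 with Cxcl9, 0.633 with Cxcl10 and 0.0023 with Ccl5.

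Among the receptors of these chemokines, Cxcr3 was higher in allogeneic than in syngeneic T cells, while Ccr1 was higher in both groups of recipients than in naive T cells. Of 6 receptors in a list, 5 had enough counts to be tested. In allogeneic against syngeneic T cells 1 was called higher and 2 lower (median log2 fold change -0.50), beside 24.3% and 20.7% of all genes. Against naive T cells 3 were called higher in allogeneic T cells (median 1.92), beside 31.8% of all genes. In syngeneic T cells 4 were called higher against naive ones (median 1.66), beside 22.4%. The other receptors tested were not called in these comparisons with naive T cells. Cxcr3, the receptor of Cxcl9 and Cxcl10, stood at 201, 211 and 225 CPM in allogeneic, 112, 91.6 and 109.7 CPM in syngeneic and 50.1, 64.4 and 59.8 CPM in naive libraries, without overlap. It rose in allogeneic against syngeneic T cells (log2 fold change 1.03 ± 0.12, adjusted p = 3.36e-05), where its ligand Cxcl10 fell, and in syngeneic against naive T cells (0.89 ± 0.12, adjusted p = 0.000102), where Cxcl10 rose.

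Ccr1, a receptor of Ccl3 and Ccl5, averaged 5.55 ± 0.373 CPM in allogeneic, 3.29 ± 1.81 in syngeneic and 0.0529 ± 0.0168 in naive libraries (SD, n = 3 each). It rose against naive T cells in allogeneic (6.76 ± 0.52, adjusted p = 7.06e-07) and syngeneic T cells (5.96 ± 0.51, adjusted p = 4.49e-06). By library Ccr1 stood at 5.70, 5.13 and 5.83 CPM in allogeneic and 1.205, 4.53 and 4.12 CPM in syngeneic ones. The summed neutrophil markers were at 451, 305 and 546 CPM in allogeneic and 220, 717 and 743 CPM in syngeneic libraries. The part of neutrophils or other cells in the Ccr1 levels was not tested. Between allogeneic and syngeneic T cells Ccr1 was not called by edgeR (0.80 ± 0.36, adjusted p = 0.0911) and was called higher by limma-voom (0.99, adjusted p = 0.0369).

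Xcr1, the receptor of Xcl1 and a marker of cross-presenting dendritic cells, was rare, at 0.546 ± 0.0621 CPM in allogeneic, 1.28 ± 0.580 in syngeneic and 0.859 ± 0.342 in naive libraries. It was called lower in allogeneic against syngeneic T cells (log2 fold change -1.20 ± 0.37, adjusted p = 0.0205). That call was lost without any 1 of the allogeneic libraries (adjusted p = 0.0546, 0.0515 and 0.0510 without replicates 1, 2 and 3) and without syngeneic replicate 2 (0.0776) or 3 (0.0771), so that the count of receptors called lower was then 1. Ackr1, an atypical receptor that binds Ccl5 among other inflammatory chemokines without signalling and is known from red cells and venules, stood at 0.305, 0.226 and 0.135 CPM in allogeneic and 1.504, 6.28 and 5.42 CPM in syngeneic libraries. In naive libraries it was at or below 0.00882 CPM. It was called lower in allogeneic against syngeneic T cells (-4.23 ± 0.52, adjusted p = 6.9e-05). So were all 5 erythroid markers, beside 20.7% of all genes tested. The part of erythroid cells in Ackr1 was not tested.

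Of 31 other chemokine genes in a list, 25 were in the table and 12 had enough counts to be tested. In allogeneic against syngeneic T cells 24.3% of all genes tested were called higher and 20.7% lower. Of the 12, 2 were called higher there, Ccl1 and Ccl6, and 1 lower (median log2 fold change -0.59). The lower count was 0 without allogeneic replicate 2 or syngeneic replicate 2, 0 with replicate blocks and 2 without syngeneic replicate 1. Against naive T cells 6 were called higher and 1 lower in allogeneic T cells (median 3.25), beside 31.8% and 25.9% of all genes. In syngeneic T cells 8 were called higher (median 3.59), beside 22.4% of all genes, and the other 4 were not called. The lower count in allogeneic against naive T cells was 2 with no filter on low counts or without any 1 syngeneic library or naive replicate 1, and 0 without naive replicate 2.

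Ccl1, a ligand of Ccr8 made by activated T cells, was called higher in the same 3 comparisons as Ccl3. It stood at 27.9, 12.5 and 20.6 CPM in allogeneic, 1.37, 1.94 and 2.37 CPM in syngeneic and 0.224, 0.106 and 0.192 CPM in naive libraries, without overlap. Ccl1 rose 11.1-fold in allogeneic against syngeneic T cells (log2 fold change 3.47 ± 0.34, adjusted p = 1.14e-05), 120.7-fold in allogeneic against naive ones (6.92 ± 0.42, adjusted p = 9.81e-08) and 10.9-fold in syngeneic against naive ones (3.44 ± 0.39, adjusted p = 3.77e-05).

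Ccl6 and Ccl9, known as products of myeloid cells, lie between Ccl5 and Ccl3 on chromosome 11. Ccl6 averaged 5.59 ± 1.48 CPM in allogeneic, 1.92 ± 1.014 in syngeneic and 0.144 ± 0.0180 in naive libraries, and rose in allogeneic against syngeneic T cells (log2 fold change 1.60 ± 0.38, adjusted p = 0.00529). Ccl9 averaged 2.26 ± 1.37 CPM in allogeneic, 3.83 ± 1.94 in syngeneic and 0.442 ± 0.0245 in naive libraries. Ccl9 was not called in allogeneic against syngeneic T cells (-0.68 ± 0.46, adjusted p = 0.249), but was called lower without allogeneic replicate 1 (-1.39, adjusted p = 0.0184). It rose against naive T cells in allogeneic (2.45 ± 0.50, adjusted p = 0.00139, and 1.73 without allogeneic replicate 1) and syngeneic T cells (3.12 ± 0.51, adjusted p = 0.000493). The noncoding gene E230016K23Rik, which lies over Ccl6 on the opposite strand, averaged 1.60 ± 0.417 CPM in allogeneic, 1.73 ± 0.331 in syngeneic and 1.95 ± 0.453 in naive libraries and was called in no comparison, so that the genes of this stretch did not all move together.

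Genes beside the Cxcl9 and Cxcl10 pair on chromosome 5 did not all change alike. Naaa, a lysosomal amidase, averaged 12.5 ± 0.733 CPM in allogeneic, 11.3 ± 2.22 in syngeneic and 8.11 ± 0.477 in naive libraries, and the nucleoporin gene Nup54 averaged 31.7 ± 1.21, 30.9 ± 1.06 and 24.7 ± 0.602 CPM in the same groups. Neither was called in allogeneic against syngeneic T cells (log2 fold change 0.16 ± 0.13, adjusted p = 0.33, for Naaa and 0.05 ± 0.08, adjusted p = 0.624, for Nup54). In that comparison Sdad1 (-0.40 ± 0.08, adjusted p = 0.00251) and Scarb2, a lysosomal membrane protein (-0.52 ± 0.09, adjusted p = 0.000671), fell, as did Cxcl10. Cxcl11, annotated as a polymorphic pseudogene, had too few counts to be tested, at a mean of 0.0306 CPM in allogeneic, 0.0652 in syngeneic and 0.0408 in naive libraries. Art3, on the opposite strand, spans Cxcl10, and averaged 0.102 ± 0.0297 CPM in allogeneic, 0.317 ± 0.0753 in syngeneic and 0.768 ± 0.296 in naive libraries. Like Cxcl10, Art3 was called lower in allogeneic against syngeneic T cells (log2 fold change -1.62 ± 0.38, adjusted p = 0.00561). Unlike Cxcl10, it was also called lower in syngeneic against naive T cells (-1.25 ± 0.35, adjusted p = 0.0129). Gm20743 spans Xcl1 on the opposite strand, with means of at most 0.0272 CPM. The libraries were stranded, but no source used here gives the strand setting of the counting. Without it, reads of such overlapping pairs cannot be told apart.

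Interferon gamma induces Cxcl9 and Cxcl10 through the receptor chains Ifngr1 and Ifngr2. Of 11 genes of that pathway, 5 were called higher and 2 lower in allogeneic against syngeneic T cells (median log2 fold change 0.16). There 24.3% of all genes tested were called higher and 20.7% lower. In allogeneic against naive T cells 8 were called higher and 2 lower (0.61), beside 31.8% and 25.9% of all genes. In syngeneic against naive T cells 5 were called higher and 1 lower (0.31), beside 22.4% and 19.5%. The last count of lower genes was 2 without allogeneic replicate 1 or 3 or syngeneic replicate 1, and also with column totals, DESeq2, limma-voom or a fit of those 2 groups only. Ifng, the cytokine itself, stood at 45.0, 44.5 and 50.5 CPM in allogeneic, 9.96, 10.8 and 11.6 CPM in syngeneic and 2.08, 2.98 and 2.42 CPM in naive libraries, without overlap. Like Ccl3 and Ccl4 it rose in allogeneic against syngeneic T cells (log2 fold change 2.13 ± 0.12, adjusted p = 1.81e-07), in allogeneic against naive ones (4.28 ± 0.13, adjusted p = 1.52e-09) and in syngeneic against naive ones (2.15 ± 0.12, adjusted p = 2.01e-07).

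The receptor chains moved in opposite directions. Ifngr1 averaged 388 ± 28.9 CPM in allogeneic, 156 ± 6.54 in syngeneic and 133 ± 14.0 in naive libraries, and rose in allogeneic against syngeneic T cells (log2 fold change 1.33 ± 0.10, adjusted p = 1.71e-06). Ifngr2 averaged 3.92 ± 0.0814 CPM in allogeneic, 18.01 ± 0.714 in syngeneic and 47.9 ± 3.99 in naive libraries, and fell in allogeneic against syngeneic (-2.19 ± 0.12, adjusted p = 1.09e-07), allogeneic against naive (-3.56 ± 0.12, adjusted p = 2.15e-09) and syngeneic against naive T cells (-1.37 ± 0.11, adjusted p = 2.79e-06). Ciita, the activator of class II histocompatibility genes, averaged 1.08 ± 0.395 CPM in allogeneic, 3.82 ± 1.59 in syngeneic and 0.306 ± 0.0309 in naive libraries. Like Cxcl10, Ciita fell in allogeneic against syngeneic T cells (-1.77 ± 0.36, adjusted p = 0.00228) and rose in syngeneic against naive ones (3.65 ± 0.40, adjusted p = 3.01e-05). It differed from Cxcl10 in being called in allogeneic against naive T cells (1.88 ± 0.39, adjusted p = 0.00146). Gbp3, an interferon-induced GTPase, followed Ifng instead, at 45.21 ± 1.80 CPM in allogeneic, 30.9 ± 2.63 in syngeneic and 15.6 ± 1.42 in naive libraries (0.57 ± 0.11, adjusted p = 0.00126, in allogeneic against syngeneic T cells).

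**Figure D5:**
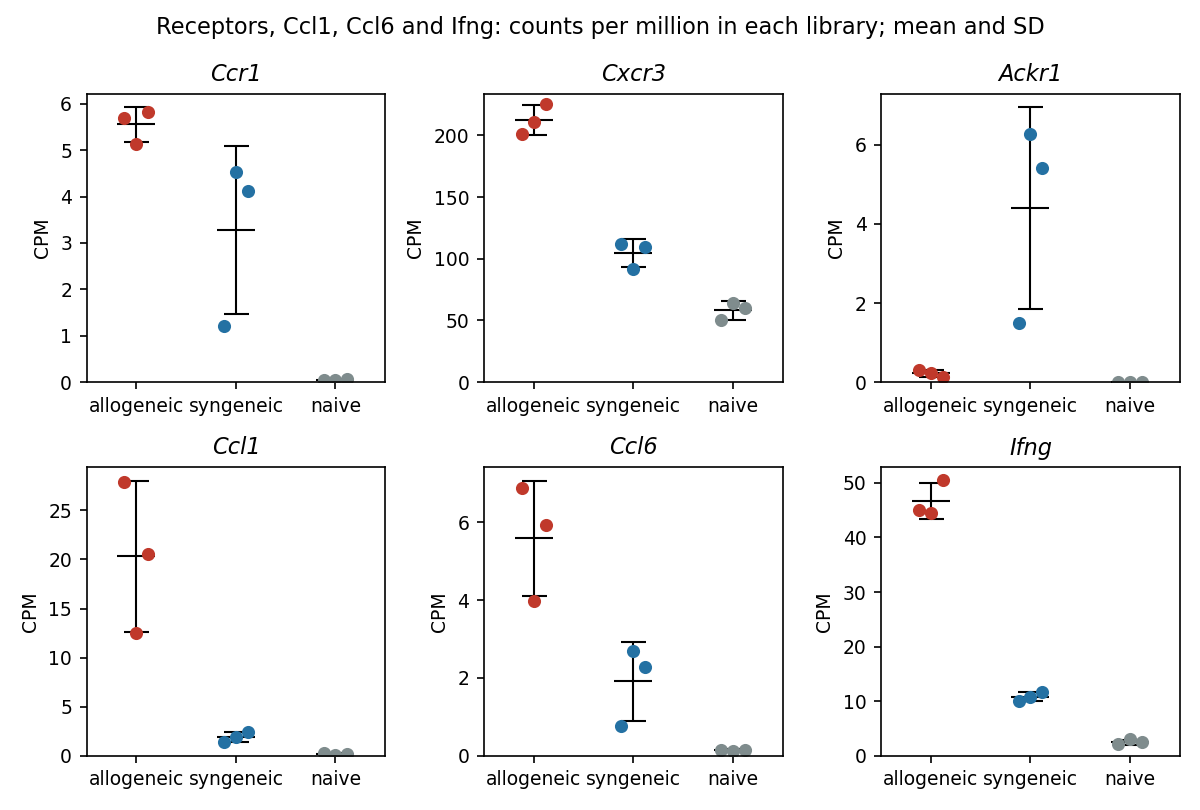
CPM (y axis) of the receptors Ccr1, Cxcr3 and Ackr1, of Ccl1 and Ccl6 and of Ifng, with 1 point per library in the allogeneic, syngeneic and naive groups and the mean and SD of each group. Cxcr3, Ccl1, Ccl6 and Ifng are highest in the 3 allogeneic libraries and Ackr1 in the 3 syngeneic ones, and Ccr1 is above its naive level in all recipient libraries.

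Transcription factors known to act on these chemokine genes in T cells or other leukocytes changed in both directions. Of 12 such factors, 7 were called higher and 2 lower in allogeneic against syngeneic T cells (median log2 fold change 0.62), where 24.3% of all genes tested were called higher and 20.7% lower. Against naive T cells 8 were called higher and 3 lower in allogeneic ones (0.63), where 31.8% of all genes were called higher and 25.9% lower. In syngeneic ones 3 were called higher and 3 lower (0.15), beside 22.4% and 19.5% of all genes. Tbx21 (T-bet), the factor of T helper 1 cells, averaged 279 ± 51.5 CPM in allogeneic, 93.7 ± 19.0 in syngeneic and 34.4 ± 6.34 in naive libraries, and rose in allogeneic against syngeneic T cells (1.58 ± 0.17, adjusted p = 2.39e-05) and in syngeneic against naive ones (1.49 ± 0.17, adjusted p = 3.86e-05). Prdm1 (Blimp-1), a factor of terminal effector cells, averaged 72.6 ± 11.7 CPM in allogeneic, 10.0 ± 2.01 in syngeneic and 10.7 ± 0.849 in naive libraries (2.87 ± 0.13, adjusted p = 4.92e-08, in allogeneic against syngeneic T cells). Batf, an AP-1 family factor of effector T cells, averaged 129 ± 9.71, 28.3 ± 3.19 and 27.8 ± 1.86 CPM in the same groups (2.201 ± 0.13, adjusted p = 2.34e-07). Irf4, which acts with Batf, averaged 74.5 ± 8.46 CPM in allogeneic, 33.4 ± 1.76 in syngeneic and 19.9 ± 3.16 in naive libraries (1.17 ± 0.10, adjusted p = 5.26e-06).

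Nfatc1, activated by calcium after antigen contact, rose in allogeneic against syngeneic T cells (log2 fold change 1.07 ± 0.09, adjusted p = 5.05e-06), as did Nfkb1, a subunit of NF-kappaB (0.67 ± 0.08, adjusted p = 3.78e-05), and Runx3, a factor of CD8 T cells (0.57 ± 0.12, adjusted p = 0.00267). The 2 factors called lower were Eomes and Jun. Eomes, a T-box factor of memory CD8 T cells, averaged 66.6 ± 8.95 CPM in allogeneic, 158 ± 15.6 in syngeneic and 56.9 ± 1.74 in naive libraries (-1.23 ± 0.14, adjusted p = 3.75e-05, in allogeneic against syngeneic T cells). In syngeneic against naive T cells Eomes rose (1.52 ± 0.14, adjusted p = 8.2e-06), as did Ccl3, Ccl4, Ccl5, Cxcl9 and Cxcl10. Jun, an AP-1 factor, averaged 52.6 ± 4.12 CPM in allogeneic, 216 ± 35.3 in syngeneic and 176 ± 40.2 in naive libraries (-2.03 ± 0.18, adjusted p = 5.8e-06, in allogeneic against syngeneic T cells). Against naive T cells, Klf13, Rela and Jun were called lower in allogeneic ones, and Klf13, Rela and Nfatc1 in syngeneic ones. There 8 and 3 factors were called higher. The log2 fold changes of Klf13 were -0.60 ± 0.11 (adjusted p = 0.000635) and -0.73 ± 0.11 (0.000288). Those of Rela, also an NF-kappaB subunit, were -0.22 ± 0.09 (adjusted p = 0.0429) and -0.35 ± 0.09 (0.0063). Between allogeneic and syngeneic T cells Rela was not called (0.13 ± 0.09, adjusted p = 0.236).

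The 3 genes most like each chemokine were taken by Pearson's r of log2 CPM over the 9 libraries, among 12886 genes with a mean of at least 1 CPM, as a description that also carries the group differences. For Ccl3 they were Myo1c, an unconventional myosin (r = 0.998), Kcnk6, a potassium channel (0.998), and Snx10, a sorting nexin (0.997). For Ccl4 they were Anxa2, an annexin (0.998), Adap1 (0.998) and Rpa2, a subunit of replication protein A (0.998). Anxa2 averaged 539.9 CPM in allogeneic, 120.6 in syngeneic and 35.4 in naive libraries. For Ccl5 they were Il10ra, a chain of the interleukin 10 receptor (0.996), Ddx46 (0.992) and Map6 (0.991), and Il10ra averaged 135 CPM in allogeneic, 81.3 in syngeneic and 50.6 in naive libraries. Xcl1 had looser likenesses, with Lrrc27 (0.931), Maged1 (0.901) and Ppat (0.893). For Cxcl9 they were Prom1 (0.970), Tmtc3 (0.960) and Cd93, a receptor of myeloid and endothelial cells (0.959). For Cxcl10 they were Klf4, a zinc finger factor (0.970), Agtr1a, an angiotensin receptor (0.966), and the noncoding gene Redrum (0.964). Klf4 averaged 5.36 CPM in allogeneic, 17.9 in syngeneic and 4.71 in naive libraries. Agtr1a averaged 0.0550, 3.93 and 0.0241 CPM and Redrum 0.0833, 5.35 and 0.00964 CPM in the same groups. Both therefore reached the mean of 1 CPM only through the syngeneic libraries, and their r restates that group difference.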

How the data were processed

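The 9 libraries of splenic T cell RNA were grouped by the transplant type in their labels. The authors deposited a table of raw read counts per gene. Per the submitters' processing notes, the tools included HTSeq 0.6.1, Bowtie2 2.2.1, TopHat2 2.0.13 and FastQC 0.11.3, and the genome build was GRCm38. No source used here gives the annotation release or the strand setting. RNA was depleted of ribosomal RNA and libraries kept strand, per the labels' protocols.

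GENCODE M21 gave symbols and coordinates for 29014 of 29229 identifiers. Unmatched genes stayed in the totals and tests, and no line lacked a gene. CPM divided counts by the column total, and CPM per kb divided by the longest transcript, or by the union of exons as an alternative. Genes kept by filterByExpr (19609) were scaled by TMM and tested in edgeR 4.0.16 (R 4.3.3) by quasi-likelihood, fitted to the 9 libraries together by group, with Benjamini-Hochberg adjustment and a threshold of 0.05. The common biological coefficient of variation was 0.193. The SE is the size of the log2 fold change divided by the square root of F. DESeq2 1.42.0, limma-voom (limma 3.58.1), DESeq2's size factors in edgeR, no filter, column totals, leaving out Gm26917 and Gm42418, a fit of each pair of groups, replicate blocks and each library left out were alternatives. Ratios between chemokines used counts with 0.5 added and exact 2-sided permutation tests over libraries (scipy 1.17.1). No replicates agreed within sampling noise. Simulated counts were used to check the scripts. Libraries of 103953932 to 176678189 counts were compared.

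The members, gene lists, markers and motifs were chosen with earlier results of these data known. Some genes of the lists are not reported here and were left out of the counts of the lists. The text names the 6 chemokines, genes of those lists and the 3 genes most like each chemokine (log2 CPM with a prior count of 2), besides genes near or over the chemokine genes, which were chosen after their values were seen. The spread of transplant replicates is that between pools. No source used here says whether naive libraries were pooled.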

Additional observations from a re-analysis of the deposited data

How the results depend on the processing

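Ccl3, Ccl4 and Ccl5 in the 3 comparisons, and Cxcl10 in allogeneic against syngeneic and syngeneic against naive T cells, kept their call and direction under each of the 17 alternatives run, including each library left out. Without Gm26917 and Gm42418 in the totals, mean CPM moved by more than 1 SD for Ccl3 in allogeneic libraries (44.4), Ccl4 in allogeneic (37.6), syngeneic (8.44) and naive ones (1.78), Ccl5 in syngeneic (154.5) and naive ones (94.2), Xcl1 in syngeneic (13.03) and naive ones (7.34) and Cxcl10 in syngeneic ones (5.91). Xcl1 passed the threshold in syngeneic against naive T cells with no filter (0.79), DESeq2 (0.81) and those 2 groups only (0.78), and ranged from 0.70 to 0.87 with a library left out. With a library left out, the members called lower in allogeneic against syngeneic T cells numbered 1 to 2, and log2 fold changes ranged from -1.10 to -0.49 for Cxcl9 in that comparison, from -0.04 to 0.72 for Xcl1 and from 0.25 to 0.88 for Cxcl10 in allogeneic against naive T cells, and from 1.19 to 1.74 for Cxcl9 in syngeneic against naive T cells. The log2 ratio of Cxcl9 to Cxcl10 in allogeneic against naive T cells ranged from -0.30 to 0.16. The cause was not tested. Xcl1 turned sign in allogeneic against naive T cells without allogeneic replicate 3 (-0.0418).

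Replicate numbers do not pair the libraries: same-numbered libraries deviated together with correlations between -0.12 and 0.26. With the replicate block no call of the 6 chemokines changed, while the only other chemokine called lower in allogeneic against syngeneic T cells lost its call. Ccl3 was then at 2.75, Ccl4 at 2.35, Ccl5 at 0.85 and Cxcl10 at -1.56 in allogeneic against syngeneic T cells, with 4657 genes called higher and 4012 lower, against 4766 and 4066 without the block. Cxcl9, at 34 to 143 counts per library, is the member with the fewest counts.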

Other observations

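A list of 6 genes for the storage, surface binding and cleavage of chemokines held both directions of change, and it includes the proteases Mmp9 and Dpp4. Mmp9 is 1 of those called higher in each group of recipients against naive T cells. The summed neutrophil markers also stood higher in recipients, at 305 to 546 CPM in allogeneic and 220 to 743 in syngeneic libraries. In naive libraries they were at 1.17 to 4.85 CPM, and the part of neutrophils in Mmp9 was not tested. Of the 6 listed, 2 were called higher and 1 lower in allogeneic against syngeneic T cells (median log2 fold change 0.35). There 24.3% of all genes tested were called higher and 20.7% lower. In allogeneic against naive T cells 3 were called higher and 1 lower (1.12), beside 31.8% and 25.9% of all genes. In syngeneic against naive T cells 2 were called higher and 1 lower (-0.02), beside 22.4% and 19.5%. The lower count in allogeneic against naive T cells was 2 with column totals and in a fit of those 2 groups. Srgn, the proteoglycan core of secretory granules, averaged 361 ± 36.8 CPM in allogeneic, 124 ± 7.73 in syngeneic and 136 ± 4.74 in naive libraries (SD, n = 3 each), and rose in allogeneic against syngeneic T cells (1.57 ± 0.12, SE, adjusted p = 1.98e-06, edgeR). Cd44, an adhesion receptor of activated T cells that can carry chemokines on its sugar chains, averaged 297 ± 10.3 CPM in allogeneic, 172 ± 24.2 in syngeneic and 103 ± 7.79 in naive libraries, with a log2 fold change of 0.82 ± 0.09 (adjusted p = 3.41e-05) in allogeneic against syngeneic T cells. Sdc4, a heparan sulphate proteoglycan, fell in that comparison (-1.34 ± 0.34, adjusted p = 0.00859). Its call in syngeneic against naive T cells (-1.09 ± 0.33, adjusted p = 0.0205) was lost without syngeneic replicate 1 (adjusted p = 0.0540), naive replicate 2 (0.0619) or naive replicate 3 (0.0521).

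NK and innate-like T cells are known to make Xcl1. Of 6 genes of these cells, 5 were called higher in allogeneic against syngeneic T cells (median log2 fold change 1.36), and Zbtb16 was not called. There 24.3% of all genes tested were called higher and 20.7% lower. In allogeneic against naive T cells 5 were called higher and 1 lower (2.21), beside 31.8% and 25.9% of all genes. In syngeneic against naive T cells 3 were called higher and 2 lower (0.67), beside 22.4% and 19.5%. The last count of lower genes in the list was 1 without naive replicate 2. Xcl1 itself was called in none of the 3 comparisons in the filtered edgeR fit to all libraries, with log2 fold changes of -0.46, 0.35 and 0.81. In syngeneic against naive T cells it was called with DESeq2 (adjusted p = 0.0216) and in edgeR with no filter (adjusted p = 0.0473). Klrk1 (NKG2D), an activating receptor of NK cells and effector CD8 T cells, averaged 106 ± 17.0 CPM in allogeneic, 12.9 ± 4.48 in syngeneic and 8.29 ± 1.51 in naive libraries, and rose in allogeneic against syngeneic T cells (3.07 ± 0.22, adjusted p = 9.96e-07, edgeR). Klrb1c (NK1.1) averaged 30.7 ± 3.66, 6.48 ± 1.77 and 9.94 ± 1.91 CPM in the same groups (2.27 ± 0.18, adjusted p = 2.36e-06, in allogeneic against syngeneic T cells). Zbtb16 (PLZF), the factor of innate-like T cells, averaged 1.22 ± 0.249 CPM in allogeneic, 1.53 ± 0.410 in syngeneic and 10.1 ± 3.25 in naive libraries, and fell against naive T cells in allogeneic (-2.99 ± 0.26, adjusted p = 1.91e-06) and syngeneic T cells (-2.69 ± 0.25, adjusted p = 9.75e-06).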
